A study of Mus musculus with 6 samples.

Results

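The Wnt genes of NSC-34 cells comprised 61 of the 23038 genes listed. Members were matched by gene symbol, in families chosen with earlier results of these data known. They cover the Wnt ligands (Wnt), their Frizzled receptors (Fzd), the co-receptors Lrp5 and Lrp6, the receptors Ror1, Ror2 and Ryk, the secreted inhibitors Dkk and Sfrp, the cytoplasmic Dishevelled proteins (Dvl), Axin1, Axin2 and Apc, β-catenin (Ctnnb1), the TCF/LEF factors, and the planar cell polarity genes Vangl, Celsr and Prickle. NSC-34 cells are hybrids of mouse neuroblastoma and embryonic spinal cord cells that keep some traits of motor neurons. Poly-A RNA was sequenced from 3 cultures given control siRNA (siNC) and 3 given siRNA against Qk (siQk), the gene of the RNA-binding protein Quaking, so each group was a transient knockdown or its control in 1 cell line. The labels name 3 different siRNAs against Qk without tying one to a library. The comparison asked which transcripts changed in level after Qk knockdown.

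Wnt proteins are secreted lipid-modified ligands that bind Frizzled receptors. With Lrp5 or Lrp6 as co-receptor, they act through Dishevelled to stop the Axin and Apc complex from marking β-catenin for breakdown, and β-catenin then enters the nucleus and joins TCF/LEF factors at target genes, Axin2, Lef1 and Dkk1 among them. Other branches run through Ror and Ryk receptors or the Vangl, Celsr and Prickle proteins and direct cell polarity and axon growth. In the developing spinal cord, Wnts pattern the dorsal side and guide axons.

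Qk, the target of the siRNA, was examined first. Its level was 9.67, 8.18 and 14.9 RPKM (reads scaled by exon length and library total) in siNC replicates 1 to 3 and 1.39, 1.71 and 1.1 RPKM in siQk replicates 1 to 3. Every siQk library lay below every siNC library. The log2 fold change, siQk over siNC throughout, was -3.0 (SE 0.34) and the adjusted p was 0.0149 by the quasi-likelihood test of edgeR, at which a gene counted as changed if p was under 0.01 and the Benjamini-Hochberg adjusted p under 0.1. Qk was no longer called when siNC replicate 1 was left out, at a log2 fold change of -3.09. Library totals ran from 43000662 to 53566076 counts. siQk replicate 2 and siNC replicate 3 stood farthest from the other libraries on the first 2 principal components, which held 41.2% and 28.9% of the variance. The motor neuron markers Isl1 and Slc18a3 passed the filter on low counts, while Chat, the enzyme that makes acetylcholine, lay below it. Chat was at 0.0297, 0.0777 and 0.0453 RPKM in siNC (7, 17 and 9 reads) and 0.0997, 0.141 and 0.136 RPKM in siQk (21, 35 and 29 reads). Its groups did not overlap (log2 fold change 1.27, adjusted p = 0.996 by the quasi-likelihood test without the filter). Of all 17986 genes with a count, 3.63% had no overlap and an absolute log2 fold change of at least 0.5. Isl1, a motor neuron transcription factor, was at 4.75 to 4.83 RPKM in siNC and 7.80 to 9.63 RPKM in siQk without passing the adjusted test. Summed levels of 4 astrocyte and 4 microglia markers did not exceed 0.222 RPKM in any library. Among 5 fibroblast markers the sum was 3.2 to 5.65 RPKM, nearly all of it Pdgfra, with the 4 others near 0. In bulk RNA, fewer cells of a type and less RNA per cell cannot be told apart.

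Sequence is shown for a few members described below, with the motifs of the pathway's own TCF/LEF factors and of Quaking. TCF/LEF factors bind CTTTGNN with each N being A or T, which was searched on both strands in the 250 bases before each RefSeq transcription start (GRCm38.p6). Of 56 promoters of 43 Wnt genes, 7 (12.5%) held a match, against 14.8% of all 32851 promoters, and 2 (3.57%) held 2 or more, against 1.43%. Wnt11, Fzd7 and Dkk1 were among them and are printed because siQk replicate 2 had the highest level of each, a choice made after the values were seen. The other 4 genes with a match, Lef1, Wnt5b, Tcf7l2 and Prickle2, were not highest in that library, and Prickle2, which held 2 matches, was lowest there. Among the Wnt genes tested, siQk replicate 2 was highest for 11 by log2 CPM. Of these, Wnt2b, Wnt7a, Fzd4, Fzd5, Axin2 and Tcf7 held no match, and Wnt5a and Axin1 were not among the promoters searched. Capitals mark the matches, which start 51 bases before the Wnt11 start, 130 before the Fzd7 start, and 117 and 98 before the Dkk1 start. The Wnt11 window is chr7:98834862-98835111 (plus strand) and the Fzd7 window chr1:59481897-59482146 (plus strand). For Dkk1 only chr19:30549586-30549615 (minus strand) is shown, because the GENCODE annotation begins the first Dkk1 exon upstream of it. A match is a string of letters and not a measured binding site.
Wnt11: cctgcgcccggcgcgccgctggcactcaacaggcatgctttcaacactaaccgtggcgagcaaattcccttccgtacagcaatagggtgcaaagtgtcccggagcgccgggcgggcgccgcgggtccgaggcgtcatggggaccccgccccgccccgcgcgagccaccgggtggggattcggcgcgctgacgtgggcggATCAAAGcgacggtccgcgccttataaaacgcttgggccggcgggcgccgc
Fzd7: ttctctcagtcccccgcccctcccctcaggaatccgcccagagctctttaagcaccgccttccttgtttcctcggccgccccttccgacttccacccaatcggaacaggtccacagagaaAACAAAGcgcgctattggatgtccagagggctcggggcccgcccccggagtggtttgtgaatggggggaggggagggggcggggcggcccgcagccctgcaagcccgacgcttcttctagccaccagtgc
Dkk1: agCTTTGAAatcccatcccggCTTTGTTgt

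Quaking proteins bind RNA at ACTAAC or ACTAAT, written in DNA letters and searched on the sense strand of the longest coding transcript of each gene (GENCODE M21, GRCm38). Of the 37 Wnt genes tested, 21 (56.8%) held at least 1 match, against 45.1% of 11013 tested genes with such a transcript, and the density was 0.195 per kilobase against 0.218. The Wnt transcripts were longer, with a median of 3983 bases against 3189. Lrp6 held 8 matches, 3 in the coding sequence and 5 in the 3′ UTR, and Ctnnb1 held 3, 1 in the coding sequence and 2 in the 3′ UTR. The 3 sites of Ctnnb1, the most abundant cytoplasmic member, lie on the plus strand at chr9:120950998-120951027 (coding), chr9:120959863-120959892 and chr9:120960172-120960201, and 2 neighbouring 3′ UTR sites of Lrp6 lie on the minus strand at chr6:134450331-134450360 and chr6:134450278-134450307. Capitals mark the match.
Ctnnb1 coding: gctgctcatcccACTAATgtccagcgcttg
Ctnnb1 3′ UTR first: agtgcctgacacACTAACcaagctgagttt
Ctnnb1 3′ UTR second: atggtgtagaacACTAATtcataatcacgc
Lrp6 3′ UTR first: gcctttgggttaACTAACatttgagggccg
Lrp6 3′ UTR second: agaaataacagtACTAACtttggacacagg

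None of the 37 Wnt genes tested was called changed after Qk knockdown. The quasi-likelihood test called 0 of the 37, against 0.0079% of the 12665 genes tested, which was Qk alone. At an unadjusted p under 0.05 it again found 0 of 37, against 2.89% of all genes. The edgeR exact test called 0 of 37 (0.0395% of all genes) and DESeq2 called 0 of 37 (0.15% of all genes). RPKM values of the groups overlapped in each of the 37, against 8.84% of all genes without overlap. The group difference of log2 CPM (counts scaled by library total) was larger than the pooled SD in 7 of the 37 (18.9%), against 25.1% of all genes. With 3 libraries a group the exact permutation test on RPKM cannot give a p under 0.1.

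Fold changes of the 37 genes were small. They ran from -0.60 (Wnt10b) to 0.59 (Fzd5) on the log2 scale, and 35 of the 37 were within 0.5 of 0. The median absolute log2 fold change was 0.145, against 0.149 over all genes tested. Values lay above 0 for 23 genes and below 0 for 14, with a median of 0.076 against 0.003 over all genes. The smallest unadjusted p was 0.0642 (Fzd5), with an adjusted p of 1 by the quasi-likelihood test.

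**Figure D1:**
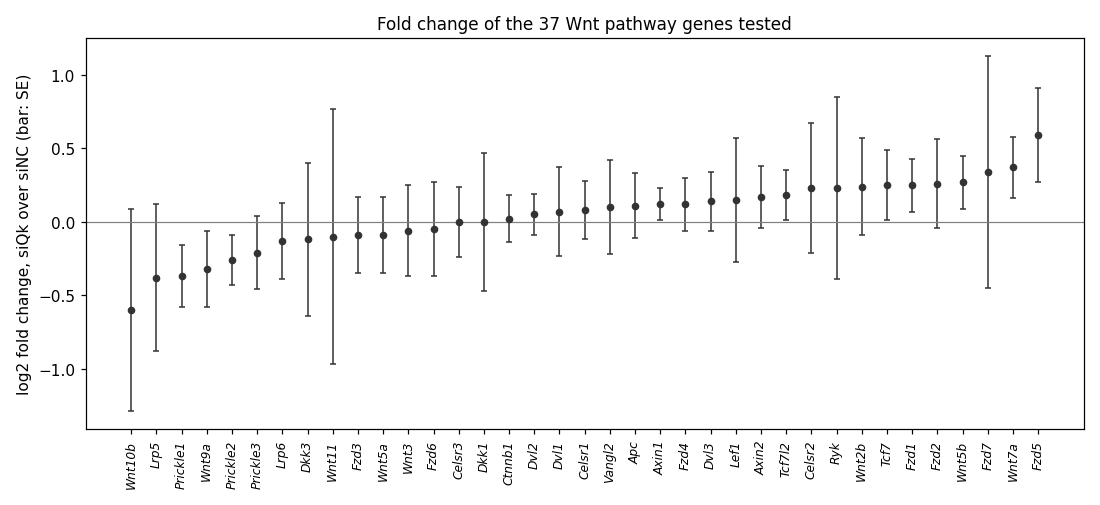
Log2 fold change (siQk over siNC, edgeR) of the 37 Wnt pathway genes tested, ordered by value, with bars for 1 standard error from the spread of 3 libraries a group. Values run from -0.60 for Wnt10b to 0.59 for Fzd5, and the widest bars belong to Wnt11 and Fzd7.

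The Wnt repertoire of the cells was uneven. Of the 61 genes, 31 had a mean of at least 1 RPKM over the 6 libraries and 9 at least 10 RPKM. The 24 genes below the filter had means of at most 0.479 RPKM. Among them Fzd8, Fzd10, Ror2, Sfrp2 and Vangl1 had no count in any library, and 3 counts, the limit that a count of 0 allows, correspond to 0.0141 to 0.0349 RPKM in a library for these genes. These limits cover counting error only. Dkk1, an inhibitor that binds Lrp5 and Lrp6, had the highest mean of the 61 at 328 RPKM, followed by Ctnnb1 at 142 RPKM and Dkk3, a secreted protein of the same family, at 118 RPKM. Prickle4 was not analysed here.

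**Figure D2:**
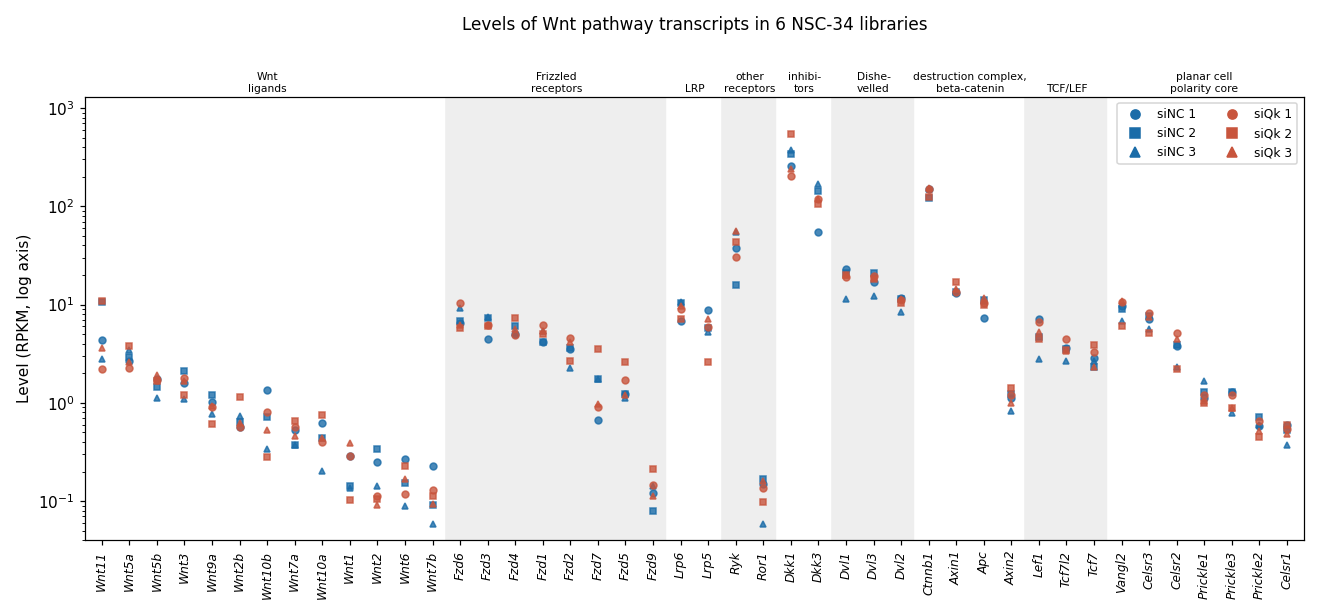
Level in RPKM (log axis) of the Wnt pathway genes with a mean of at least 0.1 RPKM, grouped by role and ordered by mean within a role; each point is 1 library, blue for siNC and red for siQk, with the shape giving the replicate. Blue and red points are interleaved in nearly all genes, and Dkk1, Dkk3 and Ctnnb1 lie highest.

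Among the 19 ligand genes, 8 passed the filter, with 3 fold changes above 0 and 5 below and a median of -0.07. Their summed level was 15.6, 21.3 and 11.4 RPKM in siNC and 11.9, 21.5 and 13.5 RPKM in siQk, in replicate order here and below. Replicate 2 of either group had the highest sum, and the groups overlapped.

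Wnt11 (chr7:98835112-98855195, plus strand), a ligand best known for β-catenin-independent signalling, had the highest mean of the ligands. It was measured at 4.32, 10.6 and 2.78 RPKM in siNC and 2.19, 10.8 and 3.58 RPKM in siQk. Replicate 2 of each group was high and the 4 other libraries were low, so the groups spanned almost the same range. Wnt11 made up 50.0% and 50.4% of the summed ligand level in those 2 libraries and 18.4% to 27.8% in the others. Its log2 fold change was -0.10 (SE 0.87, adjusted p = 1 by the quasi-likelihood test). Leaving out siQk replicate 2 moved it to -1.04, and leaving out siNC replicate 2 moved it to 0.59. Exons of Wnt11 overlap the pseudogene Gm8398 on the other strand, which shares 8.59% of its 75-base stretches, and the kit as named does not mark strand.

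Wnt5a, another ligand of the β-catenin-independent branch, was steadier. Its levels were 2.64, 2.92 and 3.45 RPKM in siNC and 2.25, 3.78 and 2.58 RPKM in siQk. The siQk libraries enclosed all siNC values, and the log2 fold change was -0.09 (SE 0.26). Wnt10b, a β-catenin-type ligand, had the lowest fold change of the 37 genes. It was at 1.36, 0.711 and 0.339 RPKM in siNC and 0.805, 0.281 and 0.534 RPKM in siQk. siNC replicate 1 was highest and siQk replicate 2 lowest, and the log2 fold change of -0.60 (SE 0.69) became 0.02 without siNC replicate 1 and -1.0 when siQk replicate 1 was dropped instead.

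With no filter on low counts, Wnt2 and Wnt4 were the 2 of 56 Wnt genes with a count (3.57%) whose groups did not overlap in RPKM with an absolute log2 fold change of at least 0.5, against 3.63% of all 17986 genes with a count. Both are ligands below the filter. Wnt2 (chr6:17988940-18030585, minus strand) had 27, 34 and 13 reads in siNC and 11, 12 and 9 in siQk, or 0.251, 0.340 and 0.143 RPKM against 0.114, 0.106 and 0.0923 RPKM. The lowest siNC library was close to the siQk libraries. In the unfiltered fit its log2 fold change was -1.24 (SE 0.31, unadjusted p = 0.0311, adjusted p = 0.996 by the quasi-likelihood test), and the exact permutation p of the RPKM values was 0.1, the smallest possible. Wnt4 had 7, 6 and 4 reads in siNC and 3, 1 and 0 in siQk, with an unadjusted p of 0.0562 in the same unfiltered quasi-likelihood test.

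Frizzled receptors bind the ligands at the cell surface. Of 10 genes, 7 passed the filter, and their fold changes were above 0 for 5 and below 0 for 2 with a median of 0.25. Under the 3 other scalings the split stayed at 5 and 2. Their summed level ran from 25.7 to 35.1 RPKM over the 6 libraries, and the groups overlapped.

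Fzd6 had the highest mean of the Frizzled genes. Its levels were 6.53, 6.80 and 9.27 RPKM in siNC and 10.3, 5.77 and 6.15 RPKM in siQk. Both the highest and the lowest value were in siQk, and the log2 fold change was -0.05 (SE 0.32). Fzd1 was at 4.12, 4.16 and 5.42 RPKM in siNC and 6.22, 5.06 and 5.34 RPKM in siQk. siNC replicate 3 alone overlapped the siQk range. The log2 fold change of Fzd1 was 0.25 (SE 0.18).

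Fzd5 (chr1:64730558-64737751, minus strand) had the highest fold change of the 37. The siNC libraries were close together at 1.24, 1.22 and 1.12 RPKM, and the siQk libraries spread over 1.72, 2.58 and 1.2 RPKM. siQk replicate 3 lay inside the siNC range and siQk replicate 2 was highest. Its log2 fold change was 0.59 (SE 0.32, unadjusted p = 0.0642, adjusted p = 1 by the quasi-likelihood test). Without siQk replicate 3 it was 0.81, and without siQk replicate 2 it was 0.26. The non-coding locus Gm38058 on the other strand shares 15.9% of the 75-base stretches of Fzd5.

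Fzd7 (chr1:59482424-59486955, plus strand) had the widest range of the 37 genes, 5.33-fold between its highest and lowest library. Levels were 0.670, 1.76 and 1.77 RPKM in siNC and 0.903, 3.57 and 0.979 RPKM in siQk. siQk replicate 2 stood above all others, while both other siQk libraries lay within the siNC range. Fzd7 had a log2 fold change of 0.34 (SE 0.79), which became -0.60 when siQk replicate 2 was left out and 0.66 when siQk replicate 1 was.

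The co-receptors Lrp5 and Lrp6 pair with Frizzled for β-catenin signalling, and both had fold changes below 0. Lrp6 was at 6.80, 10.4 and 10.7 RPKM in siNC and 9.09, 7.07 and 9.79 RPKM in siQk, with all siQk values inside the siNC range. For Lrp6 the log2 fold change was -0.13 (SE 0.26). Lrp5 (chr19:3584828-3686564, minus strand) was at 8.83, 5.82 and 5.29 RPKM in siNC and 5.88, 2.59 and 7.10 RPKM in siQk. Only siQk replicate 2 was below the siNC range. For Lrp5 the log2 fold change stood at -0.38 (SE 0.50), with -0.06 once that library was dropped, -0.12 without siNC replicate 1 and -0.68 without siQk replicate 3.

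Ryk (chr9:102834917-102908305, plus strand), a receptor with an inactive kinase domain that takes part in axon guidance, was far above Ror1, which lay between 0.0583 and 0.168 RPKM. Ryk was measured at 37.6, 15.7 and 55.3 RPKM in siNC and 30.8, 43.3 and 56.8 RPKM in siQk. siNC replicate 2 was the low library, and replicate 3 was highest in each group. The siNC libraries differed among themselves more than the groups did, with a log2 fold change of 0.23 (SE 0.62). Without siNC replicate 2 it was -0.15, and without siNC replicate 3 it was 0.70.

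Dkk1 and Dkk3 were the only 2 of the 8 secreted inhibitor genes above the filter. Dkk1 (chr19:30545863-30549665, minus strand) ranked 138 of 23038 genes by mean level. It was measured at 256, 343 and 375 RPKM in siNC and 206, 549 and 240 RPKM in siQk. siQk replicate 2 was highest and both other siQk libraries were below all siNC libraries. The log2 fold change rounded to 0.00 (SE 0.47, unadjusted p = 0.999 by the quasi-likelihood test). Without siQk replicate 2 it was -0.57 (SE 0.22, unadjusted p = 0.0262, adjusted p = 1 by the quasi-likelihood test), and without siQk replicate 1 it was 0.25.

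Dkk3 (chr7:112116017-112159057, minus strand) was at 55.2, 142 and 170 RPKM in siNC and 119, 106 and 119 RPKM in siQk. The siQk libraries were close together, and the siNC libraries lay on both sides of them, with replicate 1 low. Dkk3 gave a log2 fold change of -0.12 (SE 0.52). Without siNC replicate 1 it was -0.47 (SE 0.19, unadjusted p = 0.0218, adjusted p = 0.941 by the quasi-likelihood test), and without siNC replicate 3 it was 0.23. No sequence match tied Dkk1 or Dkk3 to exons of another gene in the annotation.

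**Figure D3:**
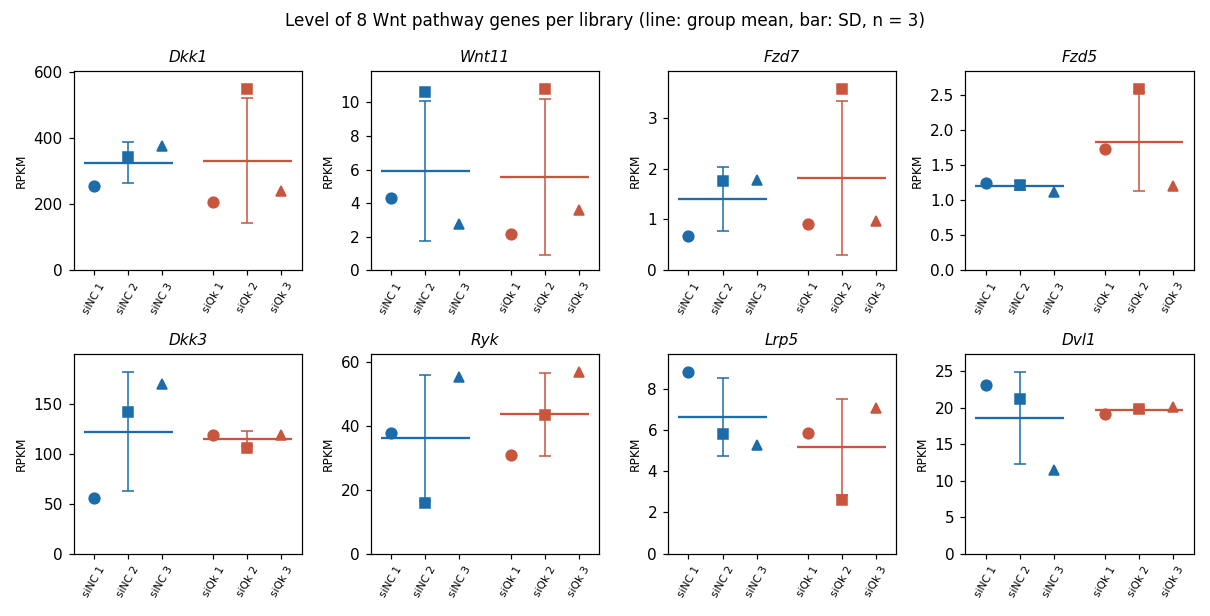
Level in RPKM of 8 Wnt pathway genes in each library, blue for siNC and red for siQk, with a line at the group mean and a bar for the SD (n = 3). siQk replicate 2 is highest for Dkk1, Wnt11, Fzd7 and Fzd5 and lowest for Lrp5, and 1 siNC library is low for each of Dkk3 (replicate 1), Ryk (replicate 2) and Dvl1 (replicate 3).

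Dishevelled proteins carry the signal from Frizzled into the cell. Dvl1 was at 23.1, 21.2 and 11.4 RPKM in siNC and 19.2, 19.8 and 20.1 RPKM in siQk. Dvl2 was at 11.6, 11.4 and 8.34 RPKM in siNC and 11.1, 10.3 and 11.5 RPKM in siQk. Dvl3 was at 17.0, 20.9 and 12.3 RPKM in siNC and 19.4, 18.1 and 18.6 RPKM in siQk. siNC replicate 3 was lowest for all 3 genes, and the siQk libraries lay inside the siNC range each time. Log2 fold changes were 0.07 (SE 0.30), 0.05 (SE 0.14) and 0.14 (SE 0.20). Without siNC replicate 3 they were -0.17, -0.07 and -0.01, and the highest values with 1 library left out were 0.26, 0.13 and 0.31. In siNC replicate 3, 5 of 8 pan-neuronal markers (Tubb3, Elavl3, Nefl, Nefm and Gap43) also had their lowest level, while Elavl4 and Snap25 did not and Stmn2 was near 0 throughout. Of all genes tested, 25.3% were lowest in that library by log2 CPM. The summed level of the 8 was 348 RPKM there against 492 to 677 RPKM in the others, with Tubb3, the largest term, at 142 RPKM against 186 to 349 RPKM. The part of this difference in the Dishevelled values was not tested. Dvl2 shares 11.8% of its 75-base stretches with the overlapping gene Acadvl and the microRNA gene Mir324.

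Ctnnb1 (chr9:120929216-120960507, plus strand), whose product β-catenin carries the signal to the nucleus, was among the steadiest. It was at 149, 121 and 150 RPKM in siNC and 152, 126 and 155 RPKM in siQk. Replicate 2 was lowest in each group, and the groups spanned nearly the same values. The log2 fold change was 0.02 (SE 0.16). Whether its 3 Quaking motifs act on its level or splicing was not tested. Exons of Ulk4 on the other strand share 17.3% of the 75-base stretches of Ctnnb1. Fold changes of Axin1, Axin2, Apc and Ctnnb1, the proteins of the β-catenin breakdown complex and its substrate, lay between 0.02 and 0.17. Axin2, a target that is transcribed where β-catenin is active, was at 1.12, 1.23 and 0.818 RPKM in siNC and 1.19, 1.43 and 0.990 RPKM in siQk. Replicate 3 was lowest in each group, and its log2 fold change was 0.17 (SE 0.21).

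Of the TCF/LEF factors, Lef1, Tcf7 and Tcf7l2 passed the filter, with fold changes of 0.15 to 0.25, and Tcf7l1 did not. Lef1, the highest of them, was at 7.21, 4.68 and 2.78 RPKM in siNC and 6.72, 4.45 and 5.25 RPKM in siQk. siNC replicate 3 was lowest and all siQk libraries fell within the siNC range. Lef1 had a log2 fold change of 0.15 (SE 0.42), which was 0.53 without siNC replicate 1 and -0.12 without siNC replicate 3. The antisense gene Gm43352 shares 33.4% of its 75-base stretches, and reads from those stretches cannot be told apart without strand.

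The planar cell polarity proteins orient cells within a sheet and act in neuronal migration and axon guidance. Of 8 genes listed, 7 passed the filter, 4 with fold changes above 0 and 3 below and a median of 0.00. Scaled by DESeq2 size factors, the split was 3 above and 4 below. Vangl2, the highest, was at 9.64, 9.13 and 6.81 RPKM in siNC and 10.7, 6.04 and 11 RPKM in siQk. siQk replicate 2 and siNC replicate 3 were the low libraries, and the log2 fold change was 0.10 (SE 0.32). Celsr2, an adhesion protein of the same branch, was at 3.75, 3.92 and 2.34 RPKM in siNC and 5.10, 2.22 and 4.52 RPKM in siQk. The same 2 libraries were low, and the log2 fold change was 0.23 (SE 0.44), with 0.51 without siQk replicate 2, 0.04 without siNC replicate 3 and about 0 without siQk replicate 1. Prickle1 had the lowest fold change of the branch, -0.37 (SE 0.21).

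The spread over the 6 libraries was described next. The median range over 6 libraries was 0.835 on the log2 scale, against 0.711 over all genes, and 10 genes (27.0%) spanned more than 2-fold, against 26.3%. The highest or lowest value fell in siQk replicate 2 or siNC replicate 3 in 35 of the 37 (94.6%), against 83.8% of all genes. siQk replicate 2 held 20 of these extremes (54.1% against 50.2%) and siNC replicate 3 held 18 (48.6% against 47.8%). siQk replicate 3 was lowest for 0 of the 37 (7.75% of all genes) and highest for 3 (7.52% of all genes).

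**Figure D4:**
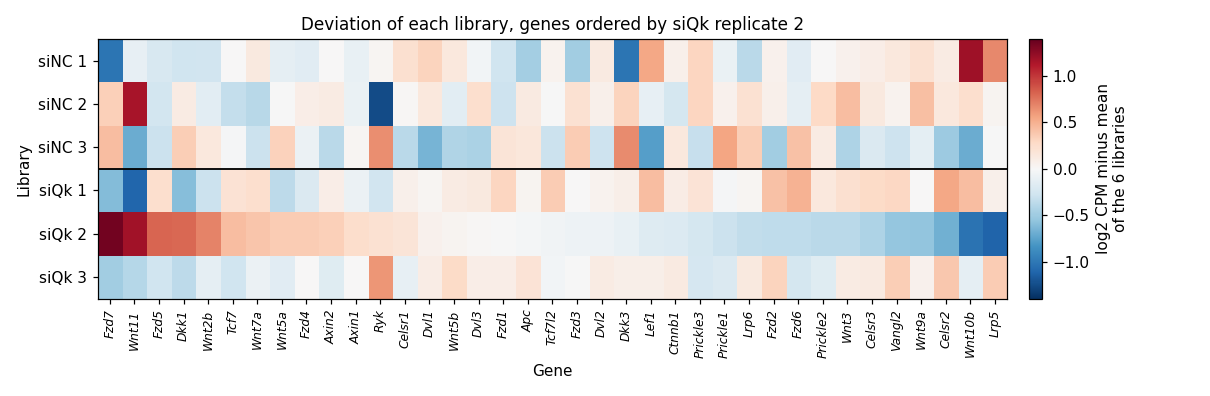
Deviation of each library from the mean of the 6 libraries in log2 CPM for the 37 Wnt pathway genes tested, with genes ordered by siQk replicate 2, red above and blue below the mean. Fzd7, Wnt11, Fzd5 and Dkk1 are at the high end of siQk replicate 2 and Lrp5, Wnt10b and Celsr2 at the low end, and siQk replicates 1 and 3 do not follow that order.

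Leaving out 1 library at a time changed the direction of several fold changes and called none of the 37. With both siNC replicate 3 and siQk replicate 2 left out, an alternative chosen after the data were seen, Wnt11 had a log2 fold change of -1.36 (SE 0.73, unadjusted p = 0.0216, adjusted p = 0.792 by the quasi-likelihood test). In the same fit Fzd1 had 0.49 (SE 0.11, unadjusted p = 0.023, adjusted p = 0.792 by the quasi-likelihood test). These were 2 of the 37 at an unadjusted p under 0.05.

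**Figure D5:**
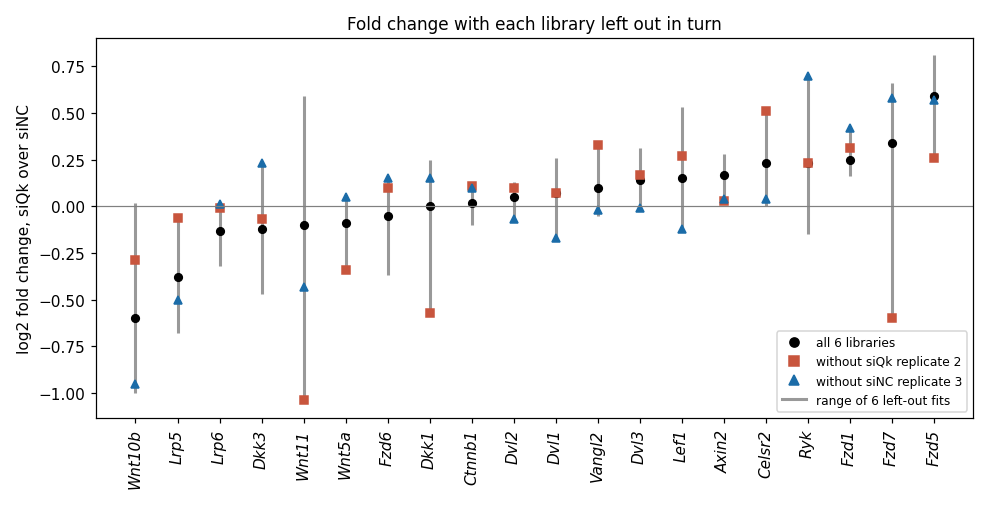
Log2 fold change (siQk over siNC) of 20 Wnt pathway genes with all 6 libraries (black), without siQk replicate 2 (red squares), without siNC replicate 3 (blue triangles), and the range when each library is left out in turn (grey). The ranges of most genes reach or cross 0, those of Wnt11, Fzd7, Ryk, Dkk1 and Dkk3 among them. The ranges of Fzd5, Fzd1 and Axin2 stay above 0, and that of Lrp5 stays below 0.

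Wnt pathway genes outside the symbol rule were read from 7 lists that hold 77 further genes, of which 61 were tested. None was called by the quasi-likelihood test. Fold changes were above 0 for 25 and below 0 for 36, with a median of -0.03, and 3 (4.92%, against 2.89% of all genes) had an unadjusted p under 0.05. These were Daam2, Myc and Dact1. Daam2, a formin that binds Dishevelled, was at 6.50, 4.42 and 6.03 RPKM in siNC and 1.94, 1.79 and 2.67 RPKM in siQk. The siQk libraries were all below the siNC libraries. Its log2 fold change was -1.43 (SE 0.26, unadjusted p = 0.000146, adjusted p = 0.614 by the quasi-likelihood test). The authors, who used edgeR with the same cutoffs, did report Daam2 as lowered in these cells. They also found a cryptic exon in Daam2 after knockdown, with RT-PCR and quantitative RT-PCR as further evidence.

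Myc, a growth-promoting transcription factor and β-catenin target, was at 99.7, 79.2 and 101 RPKM in siNC and 79.8, 60.4 and 70.4 RPKM in siQk. The ranges overlapped by a narrow margin, and the log2 fold change was -0.44 (SE 0.18, unadjusted p = 0.0333, adjusted p = 1 by the quasi-likelihood test). Dact1, which binds Dishevelled, was at 1.43, 1.17 and 0.754 RPKM in siNC and 1.36, 4.71 and 1.52 RPKM in siQk. The value of siQk replicate 2 set it apart, with a log2 fold change of 1.15 (SE 0.62, unadjusted p = 0.0345, adjusted p = 1 by the quasi-likelihood test).

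By list, the secretion genes Wls and Porcn, which carry and lipid-modify Wnts, both had fold changes below 0, with Wls at -0.36 (SE 0.18). In the R-spondin list, which holds R-spondins, their Lgr receptors and the ligases Rnf43 and Znrf3 that remove Frizzled from the cell surface, 2 were above and 2 below 0, and scaling by total counts or upper quartile gave 3 and 1. Further inhibitors had 7 above and 3 below, with Frzb, a secreted Wnt-binding protein, at 0.74 (SE 0.40). Cytoplasmic kinases and other breakdown complex genes had 2 above and 12 below with a median of -0.09, and scaling by total counts gave 5 above and 9 below. Nuclear cofactors had 4 above and 6 below. Genes of β-catenin-independent signalling had 7 above and 9 below. Commonly used β-catenin targets had 8 above and 5 below with a median of 0.06, counting 4 members of the symbol rule, Axin2, Lef1, Tcf7 and Dkk1, and scaling by total counts gave 10 and 3.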

How the data were processed

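Expected counts per gene (fractional tag numbers) and RPKM values were deposited by the authors, who aligned paired 75-base reads with OLego and counted them with Quantas. The authors' RPKM values divide the counts by exon length and library total. The submitters' processing notes name mm10, and gene positions come from GENCODE M21 (GRCm38). Groups and replicate numbers came from the labels. No label states which Qk siRNA a library received.

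Counts were rounded, genes with mean log2 CPM above 0 were kept (12665, at least 99.9% of each library's counts), and TMM factors ran from 0.957 to 1.019. siQk was compared with siNC by the quasi-likelihood test of edgeR 4.0.16 in R 4.3.3 over all 6 libraries with no other term. Adjusted p-values are over all genes tested. Standard errors come from the spread of log2 CPM (prior count 2) within each group, whereas the test also borrows spread across genes. The exact permutation test was two-sided over 20 arrangements (scipy 1.17.1). Alternatives were 3 scalings, 2 filters, the edgeR exact test, DESeq2 1.42.0, a replicate block and leaving out libraries. The scripts were tested on simulated data.

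The members and lists were chosen with earlier results of these data known. Library values and tests are given for members with an unadjusted p under 0.05, with non-overlapping groups and an absolute log2 fold change of at least 0.5, or with the highest mean level of their role. For Dkk3, Lrp5, Fzd1, Fzd5, Fzd7, Wnt5a, Wnt10b, Axin2, Dvl2, Dvl3 and Celsr2 they were chosen after values were seen. In other lists up to 3 genes with the smallest p were eligible. Overlap with other genes was counted as 75-base stretches shared between annotated transcripts on either strand. The precision is limited by the 3 libraries a group and, for genes with few reads such as Wnt2 and Wnt4, by counting error. Some marker genes examined are not reported here.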

Additional observations from a re-analysis of the deposited data

How the results depend on the processing

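No Wnt gene was called changed under any of the 15 alternatives run, and the median log2 fold change of the Wnt genes stayed above 0, from 0.015 to 0.097. The number at an unadjusted p under 0.05 was 0, and 1 (Wnt2) with no filter or with filterByExpr. It ran from 0 to 1 when each library was left out in turn, and was 2 without both siNC replicate 3 and siQk replicate 2. The genes behind these were Dkk3 (without siNC replicate 1), Dkk1 (without siQk replicate 2), Fzd5 (without siQk replicate 3), and Wnt11 and Fzd1 (without both). Of 301 refits of 21 named genes, 0 changed a call and 39 turned the sign of the fold change. The main fit did not treat libraries as pairs, because the authors' methods name no such term. Same-numbered libraries had correlations of 0.213, 0.018 and -0.17 between their deviations from the group means. The fit with a replicate block called 0 Wnt genes, found 0 at an unadjusted p under 0.05 and gave a median of 0.093. Qk was not called without siNC replicate 1, with a log2 fold change of -3.09. The cause of these shifts was not tested.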
